A study of Mus musculus with 20 samples.

Results

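Rab GTPases are the largest family of small GTPases that direct membrane traffic, and they were followed here as transcripts in zymosan-stimulated macrophages. The genes were chosen by symbol (Rab, a number and at most a letter and a digit) and selected on their counts, with at least 10 counts in 3 or more of the 20 libraries. Of 59 Rab entries among the 21963 gene entries of the count table, 48 were kept. Of these, 39 had at least 10 counts in all 20 libraries. Just inside the minimum lay *Rab30* and *Rab42*, each with 4 such libraries, and *Rab3a* with 8. *Rab3a* and *Rab42* passed only through untreated libraries and *Rab30* only through WT zymosan libraries with or without BAPTA-AM, so a difference between those groups was built into their selection. Just outside lay *Rab15*, *Rab26* and *Rab44*, with at most 8, 7 and 6 counts in any library. The other 8 entries left out were *Rab3b*, *Rab3c*, *Rab9b*, *Rab17*, *Rab25*, *Rab27b*, *Rab39b* and *Rab40b*.

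RNA was taken from bone marrow-derived macrophages (BMDMs), which are grown from marrow progenitors in culture, of WT and *Mcu*-/- mice aged 15 to 25 weeks. *Mcu* encodes the pore of the mitochondrial Ca2+ uniporter. The paper's results describe *Mcu*-/- BMDMs as coming from floxed *Mcu* mice carrying *Cx3cr1*-cre. The deletion therefore depends on Cre activity in cells that have switched on *Cx3cr1*. Zymosan is a particle of yeast cell wall that macrophages bind and engulf, and cells received 2 particles each for 3 h. The Ca2+ chelator BAPTA-AM enters cells, and WT macrophages of 1 group received it at 10 µM before zymosan was added. The groups were WT untreated (n = 4), WT with zymosan (n = 5), WT with BAPTA-AM and zymosan (n = 4), *Mcu*-/- untreated (n = 4) and *Mcu*-/- with zymosan (n = 3). There was no group of BAPTA-AM alone and none of *Mcu*-/- with BAPTA-AM. The labels call the libraries of a group biological replicates without saying whether each came from its own mouse, so p-values measure the spread between these libraries. The comparisons ask how Rab transcripts respond to an engulfed particle, and how that response differs when mitochondrial Ca2+ uptake or cytosolic Ca2+ rises are removed.

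A Rab protein switches between a GTP-bound state on a membrane and a GDP-bound state that a GDP dissociation inhibitor (GDI) can keep in the cytosol. Guanine nucleotide exchange factors (GEFs) switch it on, GTPase-activating proteins (GAPs) switch it off, and the GTP-bound form recruits effectors such as tethers and motor adaptors. In a macrophage, a newly closed phagosome acquires RAB5 on its way through early endosome-like stages and RAB7 before it fuses with lysosomes, while other Rab proteins return receptors to the surface, move cargo through the Golgi and drive secretion.

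Libraries held 14.4 to 24.0 M counts, and values are CPM, counts brought to a common library size that was corrected with edgeR's TMM factors. In 1 quasi-likelihood fit over all 20 libraries, 11707 genes including all 48 Rab genes were tested, and a Benjamini-Hochberg adjusted p under 0.05 over all of them made a call. *Mcu* had 6.49 to 8.36, 6.10 to 7.23 and 6.99 to 9.55 CPM in the WT groups and 2.63 to 4.05 and 3.62 to 3.98 CPM in the untreated and zymosan-treated *Mcu*-/- groups, lower in each *Mcu*-/- library than in any WT library. Untreated *Mcu*-/- replicate 4 stood apart, its counts giving a chi-square of 217 to 225 per gene against its 3 group mates, while the 28 other replicate pairs gave 1.60 to 6.53, and without it the biological coefficient of variation fell from 12.4% to 3.56%. The counts over all Rab genes and over their regulators are therefore given with and without this library. The summed level of 8 macrophage markers (*Csf1r*, *Adgre1*, *Cd68*, *Itgam*, *Lyz2*, *Fcgr1*, *Mertk* and *Mrc1*) was 13460 to 15620 CPM in WT libraries and 14570 to 14910 CPM in untreated *Mcu*-/- replicates 1 to 3. It was 8606 CPM in untreated *Mcu*-/- replicate 4 and 9350 to 9623 CPM in *Mcu*-/- libraries with zymosan. The other marker lists summed to at most 55.8 CPM in any library, and 5 mast cell and basophil markers had 3 counts or fewer in every library. In bulk RNA, fewer cells of a type and less RNA per cell cannot be told apart.

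By level per kilobase of exon, averaged over the 5 group means of CPM per kb, the highest Rab transcripts were *Rab5c* (220.1), *Rab8b* (209), *Rab7* (182), *Rab10* (145), *Rab1a* (131), *Rab32* (111), *Rab31* (83.4), *Rab2a* (73.5), *Rab1b* (69.8) and *Rab11a* (60.9). They serve the early endosome (*Rab5c*, *Rab31*), the late endosome and lysosome (*Rab7*, *Rab32*), transport from the ER to the Golgi (*Rab1a*, *Rab1b*, *Rab2a*) and transport to the plasma membrane (*Rab8b*, *Rab10*, *Rab11a*). The lowest were *Rab36* (0.113) and *Rab30* (0.0284). Together the 48 genes held 4429 to 4530 CPM in WT untreated libraries and 6663 to 6887 CPM with zymosan, but their share of the raw counts was nearly level, 0.548% to 0.553% and 0.587% to 0.598%. The difference between those scales comes from the TMM factors, which were 1.22 to 1.24 in WT untreated and 0.865 to 0.881 in WT zymosan libraries. Scaling by library totals instead moved the median log2 fold change of all genes tested from −0.04 to −0.54 in WT and from −0.06 to −0.58 in *Mcu*-/- macrophages, so the direction of a small zymosan response depends on the scale. *Rab8b* alone made up 9.89% to 10.4% of the Rab CPM in WT untreated and 20.2% to 20.9% in WT zymosan libraries, a share that no scaling changes.

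**Figure D1:**
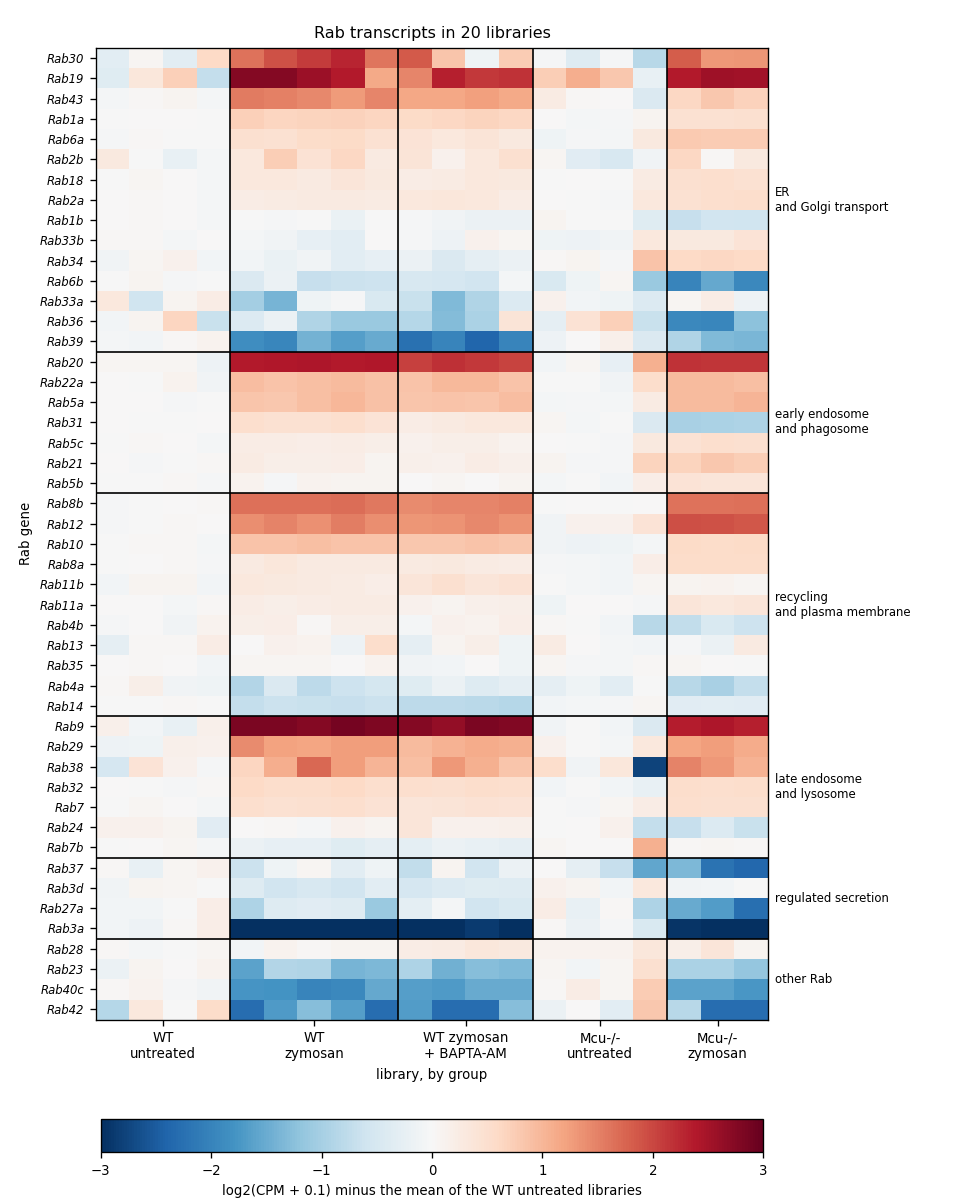
Each row is 1 of the 48 Rab genes, grouped by role, and each column 1 of the 20 libraries. Colour gives log2(CPM + 0.1) minus the mean of the 4 WT untreated libraries, cut at 3 in either direction. The zymosan columns share red rows such as Rab9, Rab20 and Rab8b and blue rows such as Rab40c, and the last untreated Mcu-/- column (replicate 4) differs from the 3 beside it.

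Zymosan changed most Rab transcripts in WT macrophages, as it did most genes. Of the 48 genes, 24 were called higher and 10 lower by edgeR's quasi-likelihood test, when 32.4% of all genes tested were called higher and 36.8% lower. The 24 include *Rab30* and the 10 include *Rab3a* and *Rab42*, whose directions came with their selection by count and add nothing to these counts. The median log2 fold change of the 48 genes was 0.19, against −0.04 for all genes. Without untreated *Mcu*-/- replicate 4, which takes part only through the estimate of spread, 47 Rab genes were tested, and 27 were higher and 11 lower, beside 37.2% and 41.3% of all genes. Of the 24 higher calls, 9 (*Rab2a*, *Rab2b*, *Rab5c*, *Rab7*, *Rab8a*, *Rab11a*, *Rab11b*, *Rab18* and *Rab31*) had a fold change below 0 when libraries were scaled by their totals, where 12 Rab genes were called higher and 30 lower. On that scale 15.7% of all genes tested were called higher and 68.5% lower. The rises named with values in the next 3 paragraphs kept their direction on either scale unless this is stated. Direction is not the call, and 3 other rises, *Rab32* and *Rab38* among them, were no longer called with library totals.

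With TMM scaling, calls among endosomal and lysosomal genes were mostly rises, but this depended on the scale. Of 7 early endosome and phagosome genes 5 were called higher and 0 lower, or 7 and 0 without untreated *Mcu*-/- replicate 4, and 3 and 3 with library totals. Of 7 late endosome and lysosome genes 5 were called higher and 0 lower, or 5 and 1 without that replicate, and 2 and 2 with library totals. All genes tested stood at 32.4% higher and 36.8% lower, or 37.2% and 41.3% without that replicate. With library totals all genes tested stood at 15.7% higher and 68.5% lower. *Rab9*, which returns mannose 6-phosphate receptors from late endosomes to the Golgi, had 24.1, 20.3, 18.7 and 24.1 CPM in WT untreated and 154, 154, 147, 159 and 152 CPM in WT zymosan libraries. The groups lay far apart, with a log2 fold change of 2.81 (SE 0.08, adjusted p = 5.1e-16 by edgeR). *Rab20*, a Rab of the maturing phagosome, had 15.3, 15.2, 15.3 and 13.1 CPM before and 76.3, 78.2, 78.8, 76.4 and 77.6 CPM after zymosan. All zymosan libraries were several times above all untreated ones, a log2 fold change of 2.39 (SE 0.19, adjusted p = 9.22e-10 by edgeR). *Rab29*, which recruits the kinase LRRK2 to membranes, went from 13.9 ± 1.59 to 33.6 ± 2.19 CPM (log2 fold change 1.27, SE 0.08, adjusted p = 7.14e-11), and *Rab38*, a Rab of lysosome-related organelles, from 0.598 ± 0.176 to 1.45 ± 0.436 CPM (log2 fold change 1.27, SE 0.44, adjusted p = 0.0143). Its relative *Rab32* rose by less, log2 fold change 0.55, SE 0.04, adjusted p = 4.22e-10. Of the RAB5 isoforms, which fuse early endosomes, *Rab5a* had 70.7, 70.7, 68.6 and 69.5 CPM untreated and 125, 123, 130.0, 139 and 128 CPM with zymosan. The *Rab5a* groups did not overlap, a log2 fold change of 0.89 (SE 0.06, adjusted p = 3.6e-11 by edgeR). *Rab22a*, an early endosome Rab with a role in recycling, rose to a similar extent, log2 fold change 0.90, SE 0.09, adjusted p = 5.37e-08. *Rab7*, the Rab of late endosome and lysosome fusion, had a log2 fold change of 0.47 and *Rab5c* one of 0.21, both called higher here and both below 0 with library totals. *Rab7b*, *Rab21*, *Rab5b* and *Rab24* were not called over all libraries, at log2 fold changes of −0.26, 0.18, 0.07 and 0.03. Without untreated *Mcu*-/- replicate 4, *Rab7b* was called lower (adjusted p = 5.89e-09) and *Rab21* (4.66e-05) and *Rab5b* (0.0399) higher, the last 2 below 0 with library totals.

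Among 11 recycling and plasma membrane genes 6 were called higher and 2 lower, or 3 and 8 with library totals. The shares of all genes tested were 32.4% and 36.8%, or 15.7% and 68.5% with library totals. *Rab8b*, which acts in transport to the plasma membrane, had 442, 448, 451 and 460.1 CPM in WT untreated and 1412, 1409, 1408, 1437 and 1344 CPM in WT zymosan libraries. This was the most abundant Rab transcript with zymosan, and its groups were separated by more than any spread within them, a log2 fold change of 1.64 (SE 0.03, adjusted p = 2.54e-18 by edgeR). *Rab12*, which directs transferrin receptor to degradation, had 33.1, 33.2, 34.5 and 34.2 CPM untreated and 88.9, 95.3, 87.3, 98.3 and 89.2 CPM with zymosan, again without overlap, a log2 fold change of 1.44 (SE 0.07, adjusted p = 1.29e-12 by edgeR). *Rab10*, a Rab of exocytic and ER membranes, rose by 0.86 on the log2 scale (SE 0.03). *Rab14*, which links the Golgi and endosomes and is found on phagosomes, moved the other way, from 285, 283, 292 and 285 CPM to 174, 182, 179, 178 and 184 CPM. Every *Rab14* value with zymosan was below every untreated one, a log2 fold change of −0.67 (SE 0.03, adjusted p = 1.05e-12 by edgeR). *Rab4a*, a Rab of rapid recycling, also fell, log2 fold change −0.66, SE 0.10, adjusted p = 1.66e-05. Of 15 ER and Golgi genes 8 were called higher and 2 lower, or 4 and 9 with library totals, beside the same shares of all genes. *Rab43*, a Rab of ER to Golgi transport, had 10.8 ± 0.546 and 29.7 ± 2.09 CPM (log2 fold change 1.46, SE 0.10, adjusted p = 9.3e-11). *Rab19* had 4, 8, 11 and 2 raw counts in the untreated and 39, 43, 38, 31 and 12 in the zymosan libraries, log2 fold change 2.61, SE 0.40, adjusted p = 8.91e-06. *Rab1a*, needed for ER to Golgi transport, rose by 0.67 on the log2 scale (SE 0.04) while *Rab1b* was not called at −0.05. *Rab39*, which is linked to phagosome acidification and autophagy, fell from 6.71 ± 0.423 to 2.04 ± 0.334 CPM, log2 fold change −1.71, SE 0.14, adjusted p = 2.8e-09, and *Rab6b*, a Golgi isoform best known from neurons, was lower, with a log2 fold change of −0.51. *Rab30* had 1, 2, 1 and 3 counts untreated and 8, 11, 13, 14 and 8 with zymosan, which is called higher but is near the count minimum that selected it. It passed that minimum only through zymosan libraries, so its rise adds nothing to the ER and Golgi count.

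With TMM scaling, the 4 secretory Rab transcripts went down or were not called. Of 4 regulated secretion genes 3 were called lower, and of the remaining 4 genes 3 were called lower, but *Rab3a* in the first group and *Rab42* in the second passed the count minimum only through untreated libraries, so their falls come with their selection and add nothing to these counts. Over all genes tested 36.8% were called lower. Without untreated *Mcu*-/- replicate 4, 3 of 4 and 2 of 3 genes were called lower, beside 41.3% of all genes. With library totals all 4 genes of each group were called lower, beside 68.5% of all genes. *Rab3a*, a Rab of Ca2+-triggered exocytosis, had 4.09, 3.90, 4.41 and 4.94 CPM untreated, from 88 to 103 counts. With zymosan it had 0.171, 0.207, 0.255, 0.329 and 0.222 CPM, from 3 to 6 counts, so its fitted log2 fold change of −4.16 describes a gene chosen for its untreated level and ends close to the limit of detection. *Rab27a*, which docks secretory granules and lysosome-related organelles, went from 2.05 ± 0.210 to 1.32 ± 0.332 CPM (log2 fold change −0.63, SE 0.23, adjusted p = 0.0209), and *Rab3d*, another exocytic Rab, from 35.8 ± 2.11 to 26.0 ± 2.09 CPM (log2 fold change −0.46, SE 0.07, adjusted p = 1.05e-05). *Rab37* was not called, at a log2 fold change of −0.22. *Rab40c*, whose SOCS box joins it to a ubiquitin ligase, had 18.5, 19.3, 17.7 and 16.8 CPM untreated and 5.24, 5.12, 4.54, 4.66 and 6.15 CPM with zymosan. These groups were also fully separated, a log2 fold change of −1.82 (SE 0.13, adjusted p = 2.6e-10 by edgeR). *Rab23*, a negative regulator of Hedgehog signalling, fell, with a log2 fold change of −1.23 (SE 0.16). *Rab42* had 4, 12, 9 and 11 counts untreated and 0, 1, 2, 1 and 0 with zymosan and was called lower on these few counts.

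**Figure D2:**
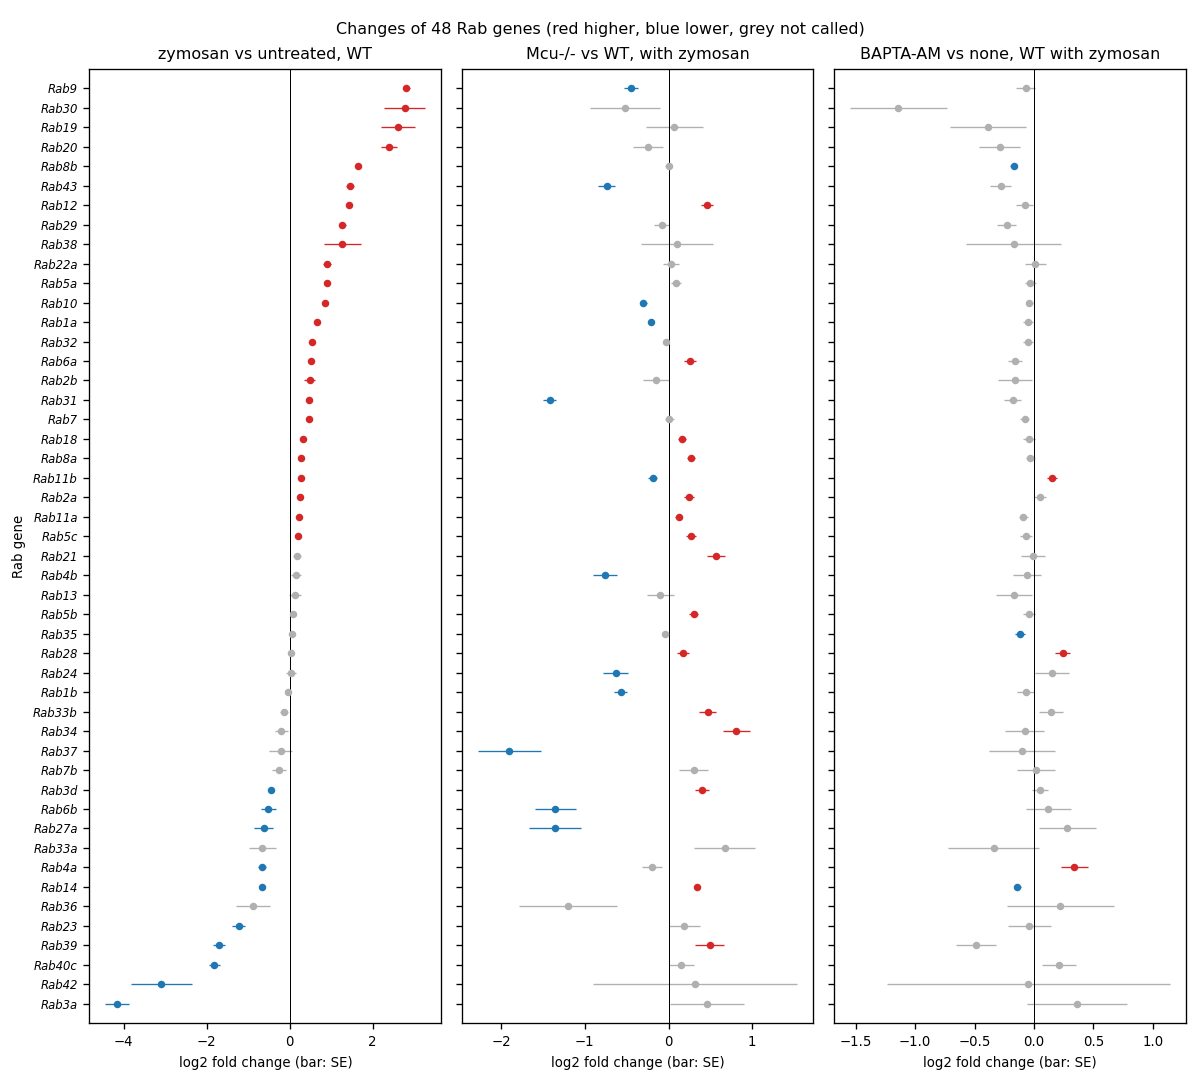
Each point is the log2 fold change of 1 Rab gene with its SE, in 3 comparisons with separate horizontal scales, with the genes ordered by the zymosan response of WT macrophages. Red genes were called higher, blue lower and grey not called. The left panel runs from −4.16 (Rab3a) to 2.81 (Rab9), the middle panel from −1.90 (Rab37) to 0.81 (Rab34), and in the right panel the called genes lie between −0.17 and 0.34, while Rab30 and Rab42 rest on few counts in all 3. Rab3a passed the count minimum only through untreated libraries.

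The 250 bases before the RefSeq transcription start could be read for 40 of the 48 genes, and the stretches for 6 of them are shown because these genes carry the results: the largest well-covered rises (*Rab8b*, *Rab9* and *Rab20*), the genotype-dependent *Rab31*, and *Rab5a* and *Rab21*, which hold the one motif with a lysosomal association. Capitals mark matches on either strand to the letters searched, and the sequences are 5′ to 3′ on the gene's strand, from RefSeq on GRCm38.p6. They lie at chr9:66919706-66919955 (*Rab8b*, minus strand), chrX:166479868-166480117 (*Rab9*, minus), chr8:11478711-11478890 (*Rab20*, minus), chr17:65772753-65773002 (*Rab31*, minus), chr17:53478984-53479233 (*Rab5a*, plus) and chr10:115315595-115315645 (*Rab21*, minus). The *Rab20* and *Rab21* stretches are shorter, 180 and 51 bases, because bases inside exons annotated in GENCODE M21 were left out.
Rab8b: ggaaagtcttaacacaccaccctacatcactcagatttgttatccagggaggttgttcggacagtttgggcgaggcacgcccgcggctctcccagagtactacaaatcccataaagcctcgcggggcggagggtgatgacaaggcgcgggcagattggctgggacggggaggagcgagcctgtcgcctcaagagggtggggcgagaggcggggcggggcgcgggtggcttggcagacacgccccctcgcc
Rab9: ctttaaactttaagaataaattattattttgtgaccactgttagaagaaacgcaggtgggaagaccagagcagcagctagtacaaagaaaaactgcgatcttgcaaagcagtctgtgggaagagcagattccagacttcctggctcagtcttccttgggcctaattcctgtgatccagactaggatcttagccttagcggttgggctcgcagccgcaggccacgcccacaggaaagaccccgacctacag
Rab20: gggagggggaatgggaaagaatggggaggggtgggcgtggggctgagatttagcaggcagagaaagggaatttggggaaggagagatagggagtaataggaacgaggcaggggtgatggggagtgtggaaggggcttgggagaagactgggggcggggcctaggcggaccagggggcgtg
Rab31: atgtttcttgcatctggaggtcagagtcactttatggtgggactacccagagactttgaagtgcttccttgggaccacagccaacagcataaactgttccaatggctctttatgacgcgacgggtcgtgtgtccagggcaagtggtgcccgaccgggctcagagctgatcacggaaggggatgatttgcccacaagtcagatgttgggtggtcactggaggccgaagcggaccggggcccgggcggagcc
Rab5a: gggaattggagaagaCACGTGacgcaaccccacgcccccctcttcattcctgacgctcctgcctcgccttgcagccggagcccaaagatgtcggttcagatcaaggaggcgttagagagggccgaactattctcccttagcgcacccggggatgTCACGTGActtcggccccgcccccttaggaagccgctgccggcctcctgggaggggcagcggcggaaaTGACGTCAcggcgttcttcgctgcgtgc
Rab21: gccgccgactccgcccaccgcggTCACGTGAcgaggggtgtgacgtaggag

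The E-box CACGTG was in the window of 5 of the 40 genes (*Rab5a*, *Rab20*, *Rab21*, *Rab23* and *Rab27a*), or 12.5%, against 6.86% of 27025 genes with a RefSeq window. The match in *Rab20* lies in the bases left out above. TCACGTGA, the CLEAR motif bound by TFEB that is common near lysosomal genes and that contains the E-box, was found in *Rab5a* and *Rab21*, 5.0% of the Rab genes against 0.907% of all. The cyclic AMP response element TGACGTCA was in *Rab5a* alone (2.5% against 1.77%), the AP-1 letters TGANTCA in *Rab34* alone (2.5% against 7.82%), and an NF-kB motif in none (0.414% of all genes). These are matches of letters in a short window, and no binding was measured. The Rab windows had a median GC content of 62.0%, against 52.4% over all windows.

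Without zymosan, Rab genes gave almost no calls between the genotypes. Between untreated macrophages of the genotypes edgeR called 0 of 48 genes higher and 0 lower, when 0.128% and 0.222% of all genes were called. At an unadjusted p under 0.05 there were 5 such Rab genes, and DESeq2 called 1. Without untreated *Mcu*-/- replicate 4, 1 Rab gene was called lower and none higher, beside 1.83% and 1.53% of all genes. This was *Rab10*, with 362, 374, 374 and 352 CPM in WT and 339, 330.3, 334 and 349 CPM in *Mcu*-/- untreated libraries. Each *Rab10* value in *Mcu*-/- was below each WT value, with a log2 fold change of −0.11 over all libraries (adjusted p = 0.192) and of −0.13 without replicate 4 (adjusted p = 0.00532). Replicate 4 itself held 296.5 CPM of *Rab7b*, which returns cargo from endosomes to the Golgi, against 141 to 147 in replicates 1 to 3. It held 31.0 CPM of *Rab20* against 12.4 to 15.3, 16.4 of *Rab4b* against 27.9 to 30.3, 233 of *Rab31* against 304 to 326, and no count of *Rab38* against 15 to 24.

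With zymosan, named Rab genes differed between the genotypes, at shares of 31.25% higher and 25% lower that were no larger than those of all genes. Relative to WT macrophages, *Mcu*-/- macrophages had 15 of the 48 genes called higher and 12 called lower, when 31.8% of all genes were called higher and 30.3% lower, and the median log2 fold change was 0.05 (0.02 for all genes). Without untreated *Mcu*-/- replicate 4 the counts were 17 and 14, beside 36.4% and 33.7% of all genes. All 15 and 12 calls were also made without that library. Most were small, with 17 of the 27 under 0.5 in absolute log2 fold change and 4 at 1 or more, all of those falls. The *Mcu*-/- libraries with zymosan held less macrophage marker RNA than any WT library (9350 to 9623 against 13460 to 15620 CPM), as did untreated *Mcu*-/- replicate 4, and more of 6 fibroblast and stromal markers (45.7 to 53.7 against 2.75 to 7.60 CPM, and 28.9 CPM in replicate 4). Among those markers *Pdgfra* had 3 counts or fewer in every *Mcu*-/- zymosan library. The 5 B cell markers were lower (13.0 to 13.6 against 30.8 to 55.8 CPM, and 18.8 CPM in replicate 4), as were the 8 neutrophil markers (0.547 to 0.765 against 2.53 to 5.71 CPM, and 0.159 CPM). The T cell markers were higher (3.17 to 3.65 against 0.918 to 1.82 CPM, and 3.53 CPM), although *Cd3e*, *Cd3d*, *Cd3g* and *Cd8a* had 3 counts or fewer. The 6 dendritic cell markers were at 10.7 to 11.9 CPM, against 9.10 to 10.0 CPM in WT with zymosan and 0.913 CPM in replicate 4. Of the 27 Rab genes called, untreated *Mcu*-/- replicate 4 already departed from the mean of WT untreated libraries in the same direction for 23, and replicates 1, 2 and 3 for 11, 17 and 12. How many of all called genes departed in this way was not counted, so these counts show nothing particular to Rab genes. The part of these marker differences in the Rab differences was not tested.

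*Rab31*, a close relative of *Rab22a* that acts between the Golgi and endosomes, was 1 of the 4 genes whose genotype difference reached 1 on the log2 scale, and the most abundant of them. It had 317, 312, 311 and 318 CPM in WT untreated, 449, 431, 429, 446 and 418 CPM in WT zymosan, 326, 304, 312 and 233 CPM in *Mcu*-/- untreated and 159.5, 163 and 166 CPM in *Mcu*-/- zymosan libraries. The *Mcu*-/- zymosan libraries were below every other library, a log2 fold change of −1.42 (SE 0.08, adjusted p = 9.18e-11 by edgeR). Zymosan raised *Rab31* in WT (0.47, below 0 with library totals) and lowered it in *Mcu*-/- macrophages (−0.85), and the difference of those responses was −1.32 (SE 0.10, edgeR adjusted p = 4.12e-08), or −1.41 without untreated replicate 4. In that replicate *Rab31* was already lower than in its group mates. It was the only one of the 48 genes called higher with zymosan in WT and lower in *Mcu*-/- macrophages.

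Other genes lower in *Mcu*-/- macrophages with zymosan came from several steps of transport. *Rab37*, a secretory Rab, had 21, 34, 40, 28 and 32 counts in WT and 12, 6 and 6 in *Mcu*-/- libraries, log2 fold change −1.90, SE 0.38, adjusted p = 0.000318. *Rab27a* had 18, 30, 31, 28 and 16 and 11, 10 and 7 counts, log2 fold change −1.35, SE 0.31, adjusted p = 0.00116. Both genes stay under about 2 CPM, and their *Mcu*-/- libraries were all below their WT libraries. *Rab6b* had 5.01, 5.95, 4.13, 4.33 and 4.38 CPM in WT and 1.65, 2.26 and 1.69 CPM in *Mcu*-/- libraries, log2 fold change −1.35, SE 0.24, adjusted p = 9.7e-05. *Rab1b* had 175, 174, 174, 154 and 176 CPM in WT and 109, 119 and 116 CPM in *Mcu*-/- libraries, a log2 fold change of −0.57 (SE 0.08, adjusted p = 6.6e-06 by edgeR). Neither gene's groups overlapped. *Rab9*, the gene with the largest rise in WT, reached 112, 116 and 109 CPM in *Mcu*-/- libraries and was lower there, with a log2 fold change of −0.45, and *Rab10* reached 540.0, 539 and 541 CPM, with one of −0.30. *Rab4b* (log2 fold change −0.76), *Rab43* (−0.74) and *Rab24*, a Rab tied to autophagy (−0.63), were also lower. Most exon bases of these 3 genes overlap another gene (65.0% with *Gm21983*, 75.4% with *Gm45140* and 62.4% with *Prelid1*), so their values are uncertain. For *Rab4b* and *Rab43* the overlap is on the gene's own strand, so stranded counting would not separate it. For *Rab24* it is on the other strand, and whether the counting used strand is not given in the sources used here. The same holds as for *Rab24* for *Rab2b* (64.0% with *Tox4*), and to a lesser degree for *Rab20* (25.6%), *Rab6a* (19.0%) and *Rab33b* (18.7%).

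The 15 higher calls were led by *Rab34*, which places lysosomes and acts in phagosome maturation, with 4.21, 3.88, 4.18, 3.56 and 3.77 CPM in WT and 6.89, 6.95 and 6.86 CPM in *Mcu*-/- libraries. The groups did not overlap, a log2 fold change of 0.81 (SE 0.16, adjusted p = 0.000296 by edgeR). *Rab21*, an early endosome Rab that carries integrins, had 88.1, 84.3, 84.0, 85.9 and 78.6 and 119, 130.1 and 125 CPM, a log2 fold change of 0.57 (SE 0.11, adjusted p = 0.000193 by edgeR). In untreated replicate 4 these genes were already at 8.17 and 118 CPM, against 4.34 to 4.73 and 73.3 to 78.3 in its group mates. *Rab12* was higher in *Mcu*-/- libraries, at 129, 127 and 123 CPM (log2 fold change 0.46, SE 0.07, adjusted p = 4.19e-05), as was *Rab14*, at 226, 228 and 226 CPM (log2 fold change 0.34, SE 0.04, adjusted p = 5.45e-07). *Rab33b*, which binds the autophagy protein ATG16L1, was higher on the log2 scale by 0.47, *Rab39* by 0.49, *Rab3d* by 0.40, *Rab5b* by 0.30, *Rab5c* by 0.27 and *Rab8a* by 0.27. Several genes called higher with zymosan in WT were not called between the genotypes, while *Rab9*, *Rab43* and *Rab12* were. *Rab8b* had 1394, 1401 and 1416 CPM in *Mcu*-/- libraries, within the range of WT, at a log2 fold change of 0.00 (SE 0.04). *Rab7* (0.01, SE 0.05), *Rab32* (−0.03, SE 0.04) and *Rab22a* (0.03, SE 0.10) were also not called, and *Rab20* (−0.24, adjusted p = 0.27) was called lower without untreated replicate 4 (adjusted p = 2.27e-05).

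**Figure D3:**
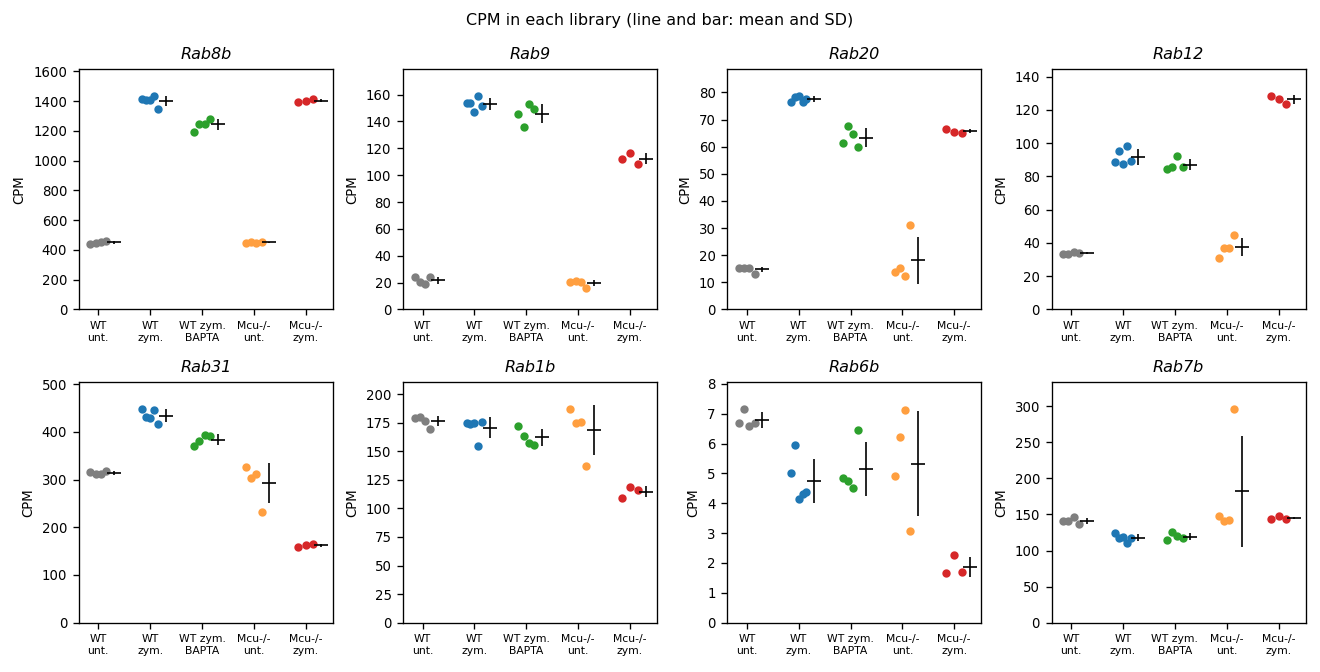
CPM of 8 Rab genes in each library (points) by group, with the group mean and SD beside them. Vertical axes start at 0. Rab8b, Rab9, Rab20 and Rab12 rise with zymosan in both genotypes, Rab31, Rab1b and Rab6b are lowest in the Mcu-/- zymosan libraries, and Rab7b shows untreated Mcu-/- replicate 4 at 296.5 CPM, far above the other libraries.

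Within *Mcu*-/- macrophages zymosan raised 25 and lowered 15 of the 48 genes, when 34.3% and 39.4% of all genes were called, and without untreated replicate 4 the counts were 27 and 14 of 47, beside 39.2% and 42.4%. Of the higher calls 8 (*Rab1a*, *Rab2a*, *Rab5b*, *Rab5c*, *Rab7*, *Rab11a*, *Rab18* and *Rab33b*) were below 0 with library totals. This comparison and the response in WT use different libraries, and 22 genes were called higher in both and 9 lower in both. How many of all genes were called the same way in both was not counted, so these counts show nothing particular to Rab genes. They include *Rab30* (higher), *Rab3a* and *Rab42* (lower), which passed the count minimum only through zymosan or only through untreated libraries. The rises were again led by *Rab9* (log2 fold change 2.52, SE 0.09, adjusted p = 9.22e-15), *Rab19* (1.98), *Rab20* (1.86), *Rab12* (1.75), *Rab8b* (1.64), *Rab38* (1.49), *Rab29* (1.10), *Rab5a* (0.94), *Rab22a* (0.81) and *Rab43* (0.74), as log2 fold changes. The falls were led by *Rab36*, a Golgi Rab (log2 fold change −2.15, SE 0.55, adjusted p = 0.00184), *Rab40c* (−1.96), *Rab27a* (−1.81), *Rab37* (−1.59), *Rab6b* (−1.52), *Rab23* (−1.19), *Rab39* (−1.12), *Rab31* and *Rab4a* (−0.67), beside *Rab3a*, whose selection through untreated libraries fixed its direction (−3.54). Of these named genes, *Rab37* overlapped between its untreated and zymosan libraries, through untreated replicate 4.

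The responses themselves differed between the genotypes for 17 genes, 8 with a higher and 9 with a lower log2 response in *Mcu*-/- macrophages, when 15.2% and 20% of all genes differed. Without untreated replicate 4 there were 16 and 12 (31.0% and 29.3% of all genes). The higher count was 5 without WT untreated replicate 3 or 4 or *Mcu*-/- untreated replicate 1, and 4 without *Mcu*-/- zymosan replicate 3. For these last fits the shares of all genes were not counted. The largest negative differences were those of *Rab37* (log2 fold change −1.36, SE 0.48, adjusted p = 0.0338), *Rab31*, *Rab27a* (−1.18), *Rab6b* (−1.0) and *Rab43* (−0.72). The largest positive ones were those of *Rab39* (log2 fold change 0.59, SE 0.22, adjusted p = 0.042), *Rab33b* (0.48), *Rab14* (0.37), *Rab12* (0.31) and *Rab3d* and *Rab5b* (0.28 each). *Rab14* fell with zymosan in both genotypes, by 0.67 in WT and 0.31 in *Mcu*-/- macrophages on the log2 scale, while *Rab12* rose in both, with 1.44 and 1.75. For *Rab8b* the difference was 0.00 (SE 0.05). The marker sums given above for the *Mcu*-/- zymosan libraries and for untreated replicate 4 move with these differences too, and their part was not tested.

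With BAPTA-AM, the fit over all 20 libraries called Rab genes at about the share of all genes, with called changes between −0.17 and 0.34 on the log2 scale. Without untreated *Mcu*-/- replicate 4, the share called lower was larger among Rab genes than among all genes, and the share called higher was smaller. With zymosan in WT macrophages, 3 of 48 genes (6.25%) were called higher and 3 lower with the chelator than without it, when 6.43% of all genes were called higher and 6.33% lower. The median was −0.06 (0.00 for all genes). Leaving out untreated *Mcu*-/- replicate 4, which is not in this comparison but widens its estimate of spread, gave 3 higher and 13 lower of 47 (6.38% and 27.7%), beside 15.3% and 16.5% of all genes. The 13 include *Rab30*, at −1.14 on 1 to 10 counts with BAPTA-AM and 8 to 14 without it. A fit of the 2 groups alone gave 3 higher and 11 lower of 44 Rab genes tested, beside 15.9% and 16.3% of all genes. There too the share called lower was larger among Rab genes, and the share called higher smaller. The counts were 1 higher without WT zymosan replicate 3 or 4 or BAPTA-AM replicate 2, 3 or 4, and 1 lower without BAPTA-AM replicate 4. For the fits without these libraries the shares of all genes were not counted. This comparison shares its WT zymosan libraries with the genotype comparison above.

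Of the genes lower with BAPTA-AM, *Rab8b* had 1194, 1248, 1249 and 1279 CPM with the chelator, each library below the 1344 to 1437 CPM without it, a log2 fold change of −0.17 (SE 0.03, adjusted p = 0.00148 by edgeR). It remained well above the untreated level of 442 to 460.1 CPM. *Rab14* had 166, 166, 164 and 157 CPM, below every WT zymosan library (log2 fold change −0.14, SE 0.03, adjusted p = 0.0111), and *Rab35*, a Rab of fast recycling, had 88.3, 89.8, 95.5 and 86.8 CPM against 97.9, 98.0, 97.8, 95.2 and 102 CPM, an overlap of a single value (log2 fold change −0.12, SE 0.04, adjusted p = 0.0373). The higher calls were *Rab4a* with 5.23, 5.95, 5.15 and 5.56 CPM (log2 fold change 0.34, SE 0.11, adjusted p = 0.043), *Rab28*, a Rab of the cilium and photoreceptors, with 27.8, 28.7, 30.6 and 29.6 CPM (log2 fold change 0.24, SE 0.06, adjusted p = 0.0163) and *Rab11b*, a Rab of recycling endosomes, with 105, 114, 105 and 108 CPM (log2 fold change 0.15, SE 0.04, adjusted p = 0.0342). In each of these 3 the BAPTA-AM libraries were above all WT zymosan libraries. Of the strong zymosan responses, that of *Rab20* was at 61.4, 67.5, 64.6 and 59.8 CPM with BAPTA-AM, each library below the 76.3 to 78.8 CPM without it. Its log2 fold change of −0.29 was not called over all libraries (adjusted p = 0.304) and was called without untreated *Mcu*-/- replicate 4 (adjusted p = 7.28e-07), as was that of *Rab31* (−0.18, adjusted p = 0.0922 and 2.61e-06). *Rab9* was not called in either fit (−0.07, SE 0.08), and neither were *Rab12* (−0.08, SE 0.07) and *Rab5a* (−0.03, SE 0.05).

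Ratios of close paralogs within a library do not depend on library scaling, and they were compared for 12 pairs with a mean of at least 20 counts each, as log2 ratios of counts plus 0.5, by two-sided exact permutation tests adjusted over the 60 tests. The smallest raw p that the group sizes allow is 0.00794 for 4 against 5 libraries, 0.0179 for 3 against 5 and 0.0286 for 4 against 4 or 3 against 4. Zymosan changed 9 ratios in WT (adjusted p = 0.0397 each, exact permutation test). *Rab8a* over *Rab8b* fell from −2.18 ± 0.04 to −3.53 ± 0.04, so the share of *Rab8b* grew, and *Rab5a* over *Rab5b* rose from −0.59 ± 0.05 to 0.22 ± 0.06. *Rab6a* over *Rab6b* rose from 3.62 ± 0.03 to 4.65 ± 0.25, *Rab7* over *Rab7b* from 1.46 ± 0.03 to 2.19 ± 0.08, and *Rab1a* over *Rab1b* from 1.12 ± 0.04 to 1.84 ± 0.10. *Rab4a* over *Rab4b* fell from −2.12 ± 0.17 to −2.92 ± 0.17. Smaller differences were found for *Rab5a* over *Rab5c* (0.67), *Rab22a* over *Rab31* (0.43) and *Rab5b* over *Rab5c* (−0.14). In *Mcu*-/- macrophages the ratios of *Rab1a* over *Rab1b*, *Rab5a* over *Rab5b*, *Rab5a* over *Rab5c*, *Rab6a* over *Rab6b*, *Rab7* over *Rab7b*, *Rab8a* over *Rab8b*, *Rab11a* over *Rab11b* and *Rab22a* over *Rab31* did not overlap between untreated and zymosan libraries, but with 3 against 4 libraries 0 of 12 ratios passed, at a lowest adjusted p of 0.0591 (exact permutation test).

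Between the genotypes with zymosan 9 ratios differed (adjusted p = 0.0466 each, exact permutation test), with the largest differences, as *Mcu*-/- minus WT, in *Rab6a* over *Rab6b* (1.60) and *Rab22a* over *Rab31* (1.45). *Rab22a* over *Rab31* stood at −0.60 ± 0.04 in the 3 *Mcu*-/- libraries and −2.04 ± 0.03 in the 5 WT libraries. *Rab4a* over *Rab4b* (0.56), *Rab1a* over *Rab1b* (0.36), *Rab11a* over *Rab11b* (0.31) and *Rab8a* over *Rab8b* (0.27) were higher, and *Rab7* over *Rab7b* (−0.29), *Rab5a* over *Rab5b* (−0.21) and *Rab5a* over *Rab5c* (−0.18) lower. With BAPTA-AM 5 ratios differed (adjusted p = 0.0397 to 0.0466, exact permutation test), and all shifts were under 0.5, among them *Rab4a* over *Rab4b* (0.41), *Rab11a* over *Rab11b* (−0.24), *Rab22a* over *Rab31* (0.19), *Rab8a* over *Rab8b* (0.15) and *Rab7* over *Rab7b* (−0.09). Of 12 ratios 0 differed between the untreated genotypes, with 0 at an unadjusted p under 0.05 as well (exact permutation test). Each of these calls rests on the smallest or nearly the smallest p that the libraries can give, and none held when p was taken as 2 times the smaller tail.

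**Figure D4:**
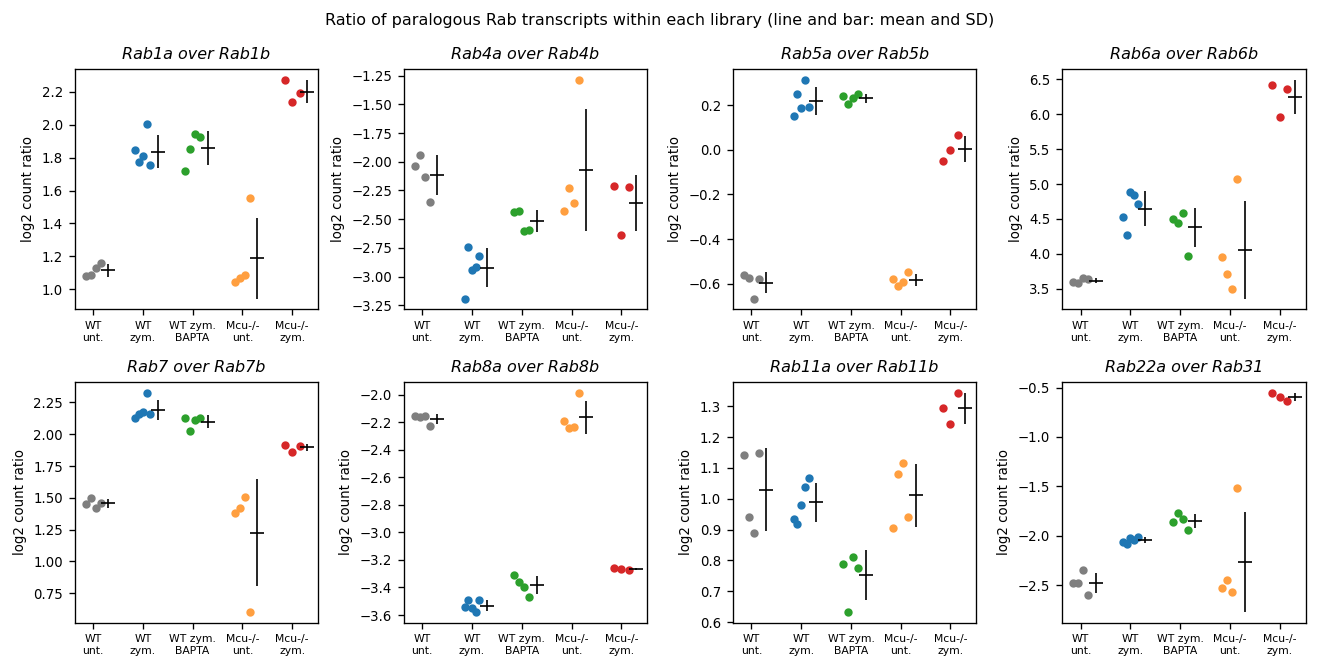
The log2 ratio of the counts of 2 paralogous Rab genes within each library (points), with the mean and SD of each group, for 8 pairs on separate vertical scales. Rab8a over Rab8b falls with zymosan in both genotypes, and Rab22a over Rab31 and Rab6a over Rab6b are highest in the 3 Mcu-/- zymosan libraries.

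The genes that regulate and read out Rab proteins were followed through a hand-written list of 110 genes, of which 99 were tested. With zymosan in WT, 26 were called higher and 47 lower (26.3% and 47.5%, against 32.4% and 36.8% of all genes), with a median log2 fold change of −0.18. Without untreated *Mcu*-/- replicate 4 these counts were 31 and 52 (37.2% and 41.3% of all genes). With library totals they were 13 and 78 (15.7% and 68.5% of all genes). By class the calls over all 20 libraries with TMM scaling were 11 and 13 of 32 GAPs, 6 and 14 of 29 GEFs, 7 and 16 of 30 effectors, and 2 and 4 of 8 genes of the GDI, escort and prenylation cycle. The largest rises were in *Rab11fip1*, an effector of RAB11 on recycling endosomes, which was at 4.30 to 5.51 CPM untreated and 144 to 159 CPM with zymosan (log2 fold change 4.97, SE 0.15), *Rin2*, a RAB5 GEF, at 58.1 to 66.1 CPM untreated and 698 to 726 CPM with zymosan (log2 fold change 3.53, SE 0.09), and *Rilpl2*, an effector of phosphorylated RAB8 and RAB10, at 99.6 to 106 CPM untreated and 519 to 555 CPM with zymosan (log2 fold change 2.36, SE 0.10). The largest falls were in the GEFs *Rab3il1*, at 256 to 267 CPM untreated and 25.9 to 31.8 CPM with zymosan (log2 fold change −3.22, SE 0.14), and *Dennd2c* (log2 fold change −2.81, SE 0.38) and in the GAP *Tbc1d8* (log2 fold change −1.62, SE 0.12). In *Mcu*-/- macrophages 39 were called higher and 39 lower with zymosan (39.4% each, against 34.3% and 39.4% of all genes). Without untreated replicate 4 the counts were 48 and 38 (39.2% and 42.4% of all genes). With library totals they were 14 and 70 (16.0% and 68.3% of all genes). The largest rises were in *Rab11fip1* (5.02), *Rin2* (3.21) and *Rilpl1* (2.10), and the largest falls in *Rab3il1* (−4.09), *Dennd2c* (−2.31) and *Madd*, a GEF of RAB3 and RAB27 (−1.95). The fall of *Dennd2c* includes untreated replicate 4, at 18.5 CPM against 5.22 to 6.29 in its group mates. *Rab3il1* (136 against 255 to 261 CPM) and *Madd* (91.3 against 127 to 135 CPM) were lower in that library than in its group mates.

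Between the genotypes with zymosan, 40 of the 99 were called higher in *Mcu*-/- macrophages and 24 were called lower (40.4% and 24.2%, against 31.8% and 30.3% of all genes). Without untreated replicate 4 the counts were 47 and 29 (36.4% and 33.7% of all genes). With library totals they were 33 and 27 (28.8% and 33.6% of all genes). *Rilpl1*, a relative of *Rilpl2* that also binds phosphorylated RAB8 and RAB10, had 3.47 to 5.27 CPM in WT and 22.1 to 23.3 CPM in *Mcu*-/- libraries (log2 fold change 2.31, SE 0.20). *Rilpl2* itself was lower, with 219 to 230.1 CPM in *Mcu*-/- libraries (log2 fold change −1.25, SE 0.11). *Lrrk2*, a kinase of several Rab proteins that was listed with the effectors, had 4.16 to 5.15 and 12.3 to 14.2 CPM (log2 fold change 1.50, SE 0.15). *Dennd1b*, a RAB35 GEF, was also higher (log2 fold change 1.31, SE 0.15), and *Rab3il1* (log2 fold change −1.06, SE 0.16) and *Mical1*, a Rab effector that oxidizes actin (log2 fold change −1.05, SE 0.20), were lower. In untreated *Mcu*-/- replicate 4, *Dennd1b* had 44.4 CPM against 22.8 to 26.1 in its group mates, and *Rilpl2* 69.3 against 111 to 113. No listed gene was called between the untreated genotypes, and 2 were called lower without that library. The zymosan response differed between the genotypes for 19 genes upward and 16 downward (19.2% and 16.2%, against 15.2% and 20% of all genes), or 42 and 26 without untreated replicate 4 (31.0% and 29.3% of all genes). They were led by *Rilpl1* (1.92), *Lrrk2* (1.44) and *Acap2* (0.95) and by *Rilpl2* (−1.22), *Mical1* (−0.93) and *Rab3il1* (−0.88). With BAPTA-AM 10 were called higher and 6 lower (10.1% and 6.06%, against 6.43% and 6.33% of all genes). Without untreated *Mcu*-/- replicate 4 the counts were 26 and 15 (15.3% and 16.5% of all genes). With library totals they were 23 and 3 (13.4% and 4.48% of all genes). The higher ones were led by the GAPs *Tbc1d24* (0.51), *Tbc1d12* (0.41) and *Tbc1d25* (0.34), and the lower ones by *Rin2* (−0.45), *Rilpl2* (−0.40) and *Tbc1d13* (−0.21). *Rin2* had 507 to 535 CPM with BAPTA-AM, below every WT zymosan library and far above the untreated ones.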

How the data were processed

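RNA-seq of 20 BMDM libraries was used. Per the labels and the methods, the authors trimmed reads with cutadapt, aligned them to mm10 with STAR and counted reads per gene with HTSeq. The deposited values are raw counts, 14.4 to 24.0 M per library. Versions and the strand setting are not given in the sources used here. Columns of the Mcu-/- zymosan group are numbered 3, 4 and 5, unlike the labels, so they were assigned to the group only and are named by these numbers.

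Counts were tested with edgeR 4.0.16 (R 4.3.3): TMM scaling, filterByExpr, 1 coefficient per group over all 20 libraries and the quasi-likelihood test, with Benjamini-Hochberg adjustment over 11707 genes and a threshold of 0.05. The test was first checked on simulated counts. Genes named are the 10 largest called rises and falls with at least 1 CPM in the higher group (5 for the difference of responses, 3 for regulators), the members of paralog pairs that differ, the 10 highest per length and those nearest the count minimum. Other Rab genes named were chosen after their values were seen. Exon lengths and overlaps are from GENCODE M21, upstream windows from RefSeq (GRCm38.p6). Alternatives were DESeq2 1.42.0, other scalings and filters, a replicate block and leaving out each library. The Rab genes and gene lists were chosen with earlier results of these data known.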

Additional observations from a re-analysis of the deposited data

Results flagged for a closer look

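In groups of 4 or 5 libraries, 26 of 192 groups of values held a library far from the rest by Dixon's test, which chance gives in about 1 in 20 groups. Of these, 13 were untreated *Mcu*-/- replicate 4. It was high for *Rab2a* (164.9 CPM), *Rab5a* (83.2), *Rab5c* (516), *Rab7b* (296.5), *Rab8a* (114.5), *Rab18* (132), *Rab20* (31.0), *Rab21* (117.7), *Rab22a* (81.3), *Rab28* (30.4), *Rab33b* (13.5) and *Rab34* (8.17), and low for *Rab4b* (16.4 CPM). The same library had less macrophage marker RNA than its group mates (8606 against 14570 to 14910 CPM) and more fibroblast and stromal marker RNA (28.9 against 1.32 to 2.95 CPM), and the part of this in its Rab values was not tested.

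The 13 others were spread over 7 libraries. With zymosan in WT these were *Rab5b* (103.7 CPM) and *Rab8a* (125.2) in replicate 2, *Rab4b* (29.99) and *Rab10* (685.7) in replicate 3 and *Rab1b* (154.3) in replicate 4. With BAPTA-AM they were *Rab24* (14.2 CPM) in replicate 1, *Rab43* (25.5) in replicate 3 and *Rab2a* (156.4), *Rab5a* (131.8) and *Rab36* (1.26) in replicate 4. In WT untreated replicate 4 they were *Rab20* (13.1 CPM), *Rab24* (8.64) and *Rab35* (89.7).

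The zymosan response differed between the genotypes by the interaction term of the edgeR fit for 17 genes, given as the log2 response of *Mcu*-/- minus that of WT macrophages. It was lower in *Mcu*-/- macrophages for *Rab37* (−1.36), *Rab31* (−1.32), *Rab27a* (−1.18), *Rab6b* (−1.0), *Rab43* (−0.72), *Rab4b* (−0.57), *Rab1b* (−0.51), *Rab1a* (−0.21) and *Rab10* (−0.18). It was higher for *Rab39* (0.59), *Rab33b* (0.48), *Rab14* (0.37), *Rab12* (0.31), *Rab3d* (0.28), *Rab5b* (0.28), *Rab8a* (0.25) and *Rab11a* (0.16).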

How the results depend on the processing

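Of 3524 alternative values for 124 single-gene results, 3384 kept direction and call, 123 lost the call and 17 reversed, all 17 with library totals. These were, for zymosan in WT, *Rab2a* (−0.24), *Rab2b* (−0.01), *Rab5c* (−0.28), *Rab7* (−0.02), *Rab8a* (−0.21), *Rab11a* (−0.27), *Rab11b* (−0.23), *Rab18* (−0.18) and *Rab31* (−0.03), and in *Mcu*-/- macrophages *Rab1a* (−0.06), *Rab2a* (−0.10), *Rab5b* (−0.16), *Rab5c* (−0.11), *Rab7* (−0.10), *Rab11a* (−0.14), *Rab18* (−0.10) and *Rab33b* (−0.18). With library totals 12 genes were called higher and 30 lower with zymosan in WT, 11 and 26 in *Mcu*-/- macrophages, and 1 lower with BAPTA-AM. On that scale the shares of all genes were 15.7% and 68.5% in WT, 16.0% and 68.3% in *Mcu*-/- macrophages, and 4.48% lower with BAPTA-AM. A minimum absolute log2 fold change of 1 left 9 and 5 for zymosan in WT, 8 and 9 in *Mcu*-/-, 0 and 4 between genotypes with zymosan, 0 and 0 with BAPTA-AM, and 0 and 4 for the difference of responses. The shares of all genes at this minimum were not counted, so these counts show nothing particular to Rab genes.

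With BAPTA-AM, DESeq2 size factors gave 1 higher and 5 lower, no filter 1 higher, the DESeq2 Wald test 8 lower, and the groups alone 11 lower. The shares of all genes were 5.37% higher and 7.57% lower with DESeq2 size factors, and 16.3% lower in the groups alone. For the difference of responses, no filter gave 5 higher and the groups alone 4, the latter beside 12.7% of all genes. The Wald test called 1 gene lower between untreated genotypes. Chosen after seeing the data, DESeq2 size factors and the Wald test without untreated *Mcu*-/- replicate 4 gave 14 and 15 lower with BAPTA-AM, 16 and 15 higher for the difference of responses, and 1 lower each between untreated genotypes. The shares of all genes were not counted for no filter, for the Wald test or for these fits chosen later.

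Leaving out 1 library gave 23 to 27 higher and 9 to 11 lower for zymosan in WT, 13 to 17 and 12 to 14 between genotypes with zymosan, 24 to 27 and 13 to 17 for zymosan in *Mcu*-/-, 1 to 3 and 1 to 13 with BAPTA-AM, 0 to 0 and 0 to 1 between untreated genotypes, and 4 to 16 and 6 to 12 for the difference of responses. Of the higher ends, 13 and 16 came without untreated *Mcu*-/- replicate 4. There 16.5% of all genes were called lower with BAPTA-AM and 31.0% higher for the difference of responses. For the other libraries left out, the shares of all genes were not counted. Paralog ratios called ranged from 0 to 9 (zymosan in WT), 0 to 0 (genotypes with zymosan) and 0 to 4 (BAPTA-AM), since fewer libraries raise the smallest p. Without a minimum mean count they were 0 (genotypes with zymosan) and 3 (BAPTA-AM), and with p as 2 times the smaller tail, chosen after seeing the data, 0, 0 and 0.

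A replicate block over 17 libraries, without the *Mcu*-/- zymosan group whose numbers differ from the labels, gave 24 higher and 7 lower for zymosan in WT and 2 and 1 with BAPTA-AM, and the same libraries without the block, added after seeing the data, 24 and 9 and 1 and 2. The shares of all genes were not counted for either fit. The deviations of same-numbered libraries from their group means, in log2 CPM, correlated by −0.055 to 0.061 and so showed no pairing by number. Whether equal numbers mark a shared mouse or batch was not tested. Genes under about 1 CPM, such as *Rab30*, *Rab36* and *Rab42*, are limited by depth.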
